A study of Mus musculus with 6 samples.

Results

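MHC class I molecules carry peptides of cytosolic proteins to the cell surface, where CD8+ T cells read them. The genes of this pathway examined here were 10 of the 38887 gene identifiers listed: the heavy chains H2-K1 and H2-D1, the light chain B2m, the peptide transporter and loading genes Tap1, Tap2 and Tapbp, the immunoproteasome subunits Psmb8, Psmb9 and Psmb10, and the transactivator Nlrc5. They are listed by their role in the pathway, and all 10 had enough counts to be tested. RNA had been sequenced from bone marrow (BM) neutrophils in 3 groups with 2 libraries each: naive mice without tumor, mice bearing LL2 tumors for 1 week (one-week LL2 mice) and mice bearing them for 3 weeks (three-week LL2 mice). LL2 is a mouse Lewis lung carcinoma line, here carrying luciferase and given into a vein so that tumors form in the lung. The cells were selected with magnetic beads for Ly6G, a surface protein of neutrophils. The labels number the libraries of a group as replicates without saying whether each came from a separate mouse, so p-values measure the spread between these libraries, which may be technical. The study's wild-type mice were young adult C57BL/6 mice, female in one line and of both sexes in another, and which of these were sequenced is not stated in the sources used here.

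In the class I pathway the proteasome cuts proteins into peptides, and in immune cells the subunits Psmb8, Psmb9 and Psmb10 replace the constitutive catalytic subunits Psmb5, Psmb6 and Psmb7. The transporter made of Tap1 and Tap2 moves the peptides into the endoplasmic reticulum, where tapasin (Tapbp) and chaperones load them onto a heavy chain bound to B2m. Interferons raise most of these genes, and Nlrc5 acts as the transactivator of class I promoters.

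The libraries held between 11994158 and 14127919 counts, so that 3 counts, taken as the limit of detection, were worth between 0.200 and 0.246 CPM, which relate counts to the TMM-scaled library total. This limit covers only the error of counting, because PCR copies of a molecule are not independent reads. In each library the 12 neutrophil markers summed to between 288094 and 352405 CPM, and S100a8 was the largest of them. Of the 12, Cxcr2 and Retnlg were higher and Camp, Ltf and Ngp lower at 3 weeks than in naive mice. Over all tested genes 12.0% were higher and 9.42% lower. Against one-week LL2 mice 4 were higher and 3 lower, where 12.9% and 9.57% of all tested genes were. At 1 week against naive mice 1 was higher. Ly6g itself had between 6 and 32 counts per library, so that the gate could not be checked on its own transcript. The 11 B-lineage markers summed to between 52.0 and 67.7 CPM in the naive and one-week libraries and to 16.3 and 14.3 CPM in the three-week libraries, and 11 of 11 were lower at 3 weeks than in naive mice. The 7 early granulocyte markers, led by Mpo, summed to between 53.2 and 99.3 CPM in the naive and one-week libraries and to 268 and 364 CPM at 3 weeks. The part of these cells in the results for class I genes was not tested, and in bulk RNA fewer cells of a type and less RNA per cell cannot be told apart.

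At 3 weeks 6 of the 10 class I genes differed from naive mice, and they did not all move the same way. Against naive mice, H2-K1, B2m, Tap1, Psmb10 and Nlrc5 were lower and Tap2 was higher at 3 weeks, while H2-D1, Tapbp, Psmb8 and Psmb9 did not pass the test (edgeR quasi-likelihood test, Benjamini-Hochberg adjusted p under 0.05). Thus 5 of the 10 genes were lower, where 9.42% of the 12259 tested genes were lower, 1 was higher, where 12.0% of tested genes were, and 6 changed, where 21.4% did. At 1 week H2-K1 was lower and Psmb8 higher, and 8 genes did not pass. Of all tested genes 7.99% changed at that time, with 4.23% higher and 3.76% lower. At an unadjusted p under 0.05 in edgeR's test, 1501 of the 12259 genes were higher and 1348 lower at 1 week. At 3 weeks against naive mice 2282 were higher and 1864 lower. Counts at an unadjusted p in the lists below are to be read against these. When the LL2 groups were compared, B2m, Tap1, Psmb8, Psmb10 and Nlrc5 were lower at 3 weeks and Tap2 was higher, and in this comparison 22.5% of tested genes changed, 12.9% higher and 9.57% lower. The median log2 fold change of the 10 genes was -0.03 at 1 week, -0.41 at 3 weeks and -0.41 between the LL2 groups, and over all tested genes it was 0.01, 0.03 and -0.02. Both comparisons with naive mice share the naive libraries.

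**Figure D1:**
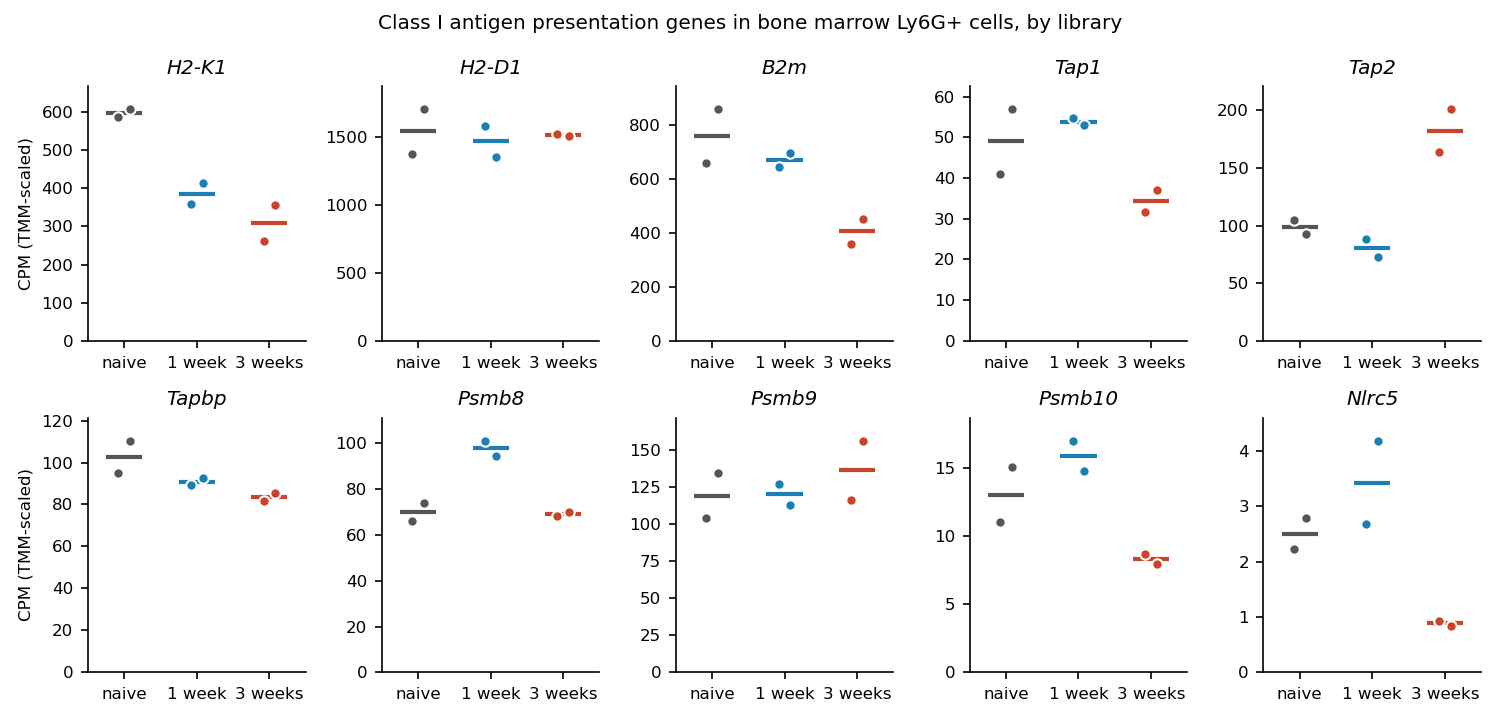
Level of the 10 class I genes in each library, in CPM scaled by TMM (vertical axis from 0), with 1 point per library and a bar at the mean of the 2 libraries of each group on the horizontal axis. The 2 three-week libraries lie below all others for B2m, Tap1, Psmb10 and Nlrc5 and above all others for Tap2.

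**Figure D2:**
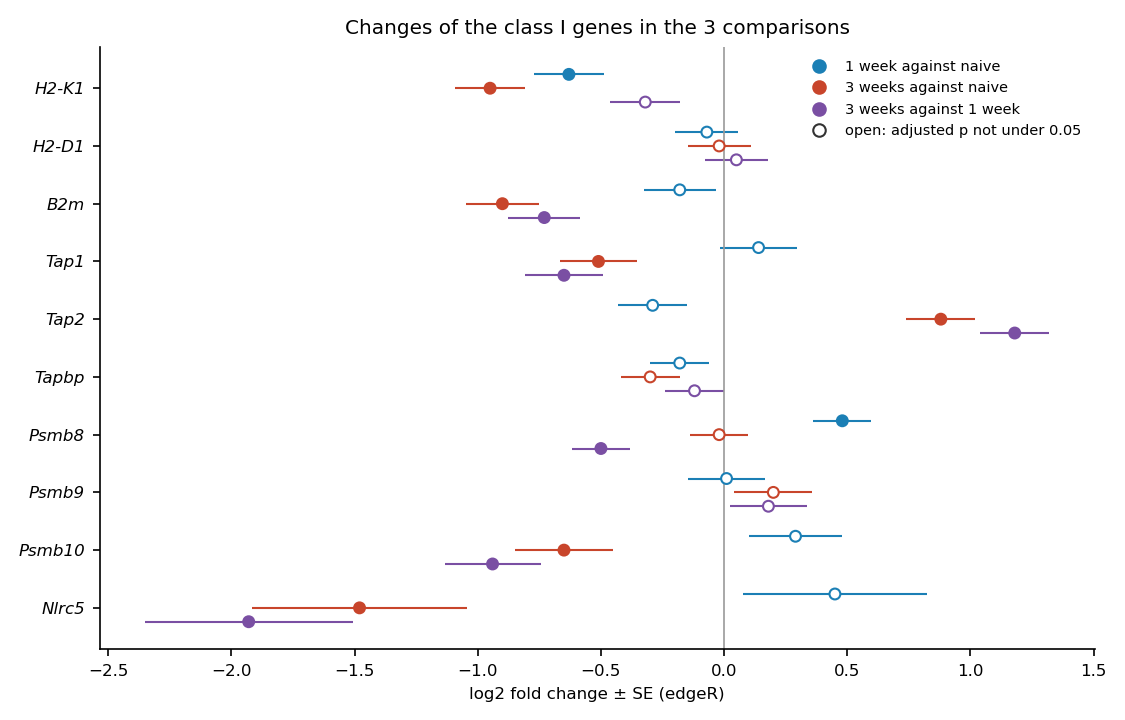
Log2 fold change (horizontal axis) with its standard error for the 10 genes in the 3 comparisons. Filled points passed an adjusted p of 0.05 in edgeR's test, and Tap2 lies at 0.88 and 1.18 where B2m, Tap1, Psmb10 and Nlrc5 lie below 0 in both three-week comparisons.

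The heavy chains H2-K1 and H2-D1, the classical class I molecules that present peptide to CD8+ T cells, differed in their course. H2-K1 (ENSMUSG00000061232, protein-coding, GRCm38 chromosome 17, 33996017 to 34000347, minus strand) had 587 and 607 CPM in naive libraries, 359 and 413 at 1 week and 262 and 357 at 3 weeks. Both naive libraries were above all LL2 libraries, and the LL2 groups did not overlap either. H2-K1 was 1.55-fold lower at 1 week (log2 fold change -0.63, SE 0.142, edgeR adjusted p = 0.0180) and 1.93-fold lower at 3 weeks (log2 fold change -0.95, SE 0.143, edgeR adjusted p = 0.000456). The difference between the LL2 groups did not pass the test (-0.32, SE 0.142, edgeR adjusted p = 0.129), although it passed without three-week replicate 2 (edgeR adjusted p = 0.0178), with library totals in place of TMM (0.0198) and with no filter on low counts (0.0350). The one-week call was lost when any of the 4 libraries compared was left out, with adjusted p-values of 0.106 and 0.0770 without naive replicates 1 and 2, and 0.156 and 0.0587 without one-week replicates 1 and 2. At 1 week none of the 11 B-lineage markers passed edgeR's test (0 also at an unadjusted p under 0.05), and their summed level was 59.9 CPM in naive and 60.0 CPM in one-week LL2 mice on average. Other markers did move at 1 week: those of basophils, eosinophils and mast cells summed to 23.8 CPM in naive and 47.3 CPM in one-week LL2 mice on average, with 3 of 4 tested higher, and Siglech, of the dendritic cell list, was lower. Their part in the one-week results was not tested.

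H2-D1 (ENSMUSG00000073411, protein-coding, chromosome 17, 35262730 to 35267499, plus strand) had 1375 and 1701 CPM in naive libraries, 1581 and 1352 at 1 week and 1520.4 and 1505 at 3 weeks. The 3 groups overlapped. Its log2 fold changes were -0.07 at 1 week, -0.02 at 3 weeks and 0.05 between the LL2 groups (SE 0.128 each, edgeR adjusted p between 0.807 and 0.922). Within a library, H2-D1 had 2.34 and 2.80 counts per count of H2-K1 in naive mice, 4.40 and 3.27 at 1 week and 5.80 and 4.21 at 3 weeks, so that all 4 LL2 libraries were above both naive ones.

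Reads of these genes can be split between near-identical copies. Of the windows of 50 bases in the transcripts, 9.63% in H2-K1 and 12.8% in H2-D1 occur in another gene, the 2 genes themselves and H2-Q7 among these for both. H2-Q4, a non-classical heavy chain that the counts place between H2-D1 and H2-K1, had between 642 and 795 CPM and passed no test. When the counts of 20 class I heavy chain genes were summed, the total was between 2594 and 3303 CPM, and its log2 fold change was -0.11 at 1 week (edgeR adjusted p = 0.607), -0.21 at 3 weeks (edgeR adjusted p = 0.209) and -0.10 between the LL2 groups (edgeR adjusted p = 0.567). H2-K1, H2-D1 and H2-Q4 held between 90.6% and 93.4% of that sum. With library totals in place of TMM the sum passed the test at 3 weeks (-0.36) and between the LL2 groups (-0.30).

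The promoters of H2-K1 and H2-D1, genes whose levels took different courses, carry the same motifs in the same order. They are shown together with those of B2m and Tap1, which were both lower at 3 weeks, as the 250 bases before the start in RefSeq (GRCm38.p6), 5′ to 3′ on the strand of the gene, with motif matches in capitals. The motifs searched on both strands were the kappaB site GGGNNTTCC, the interferon-stimulated response element in the forms GAAANNGAA and GAANNGAAA, the gamma-activated site TTCNNNGAA, the X2 box core TGACG and the Y box CCAAT. The form GAANNGAAA was added after the promoters had been read. No matches overlapped.
H2-K1, chr17:34000348-34000597, minus strand: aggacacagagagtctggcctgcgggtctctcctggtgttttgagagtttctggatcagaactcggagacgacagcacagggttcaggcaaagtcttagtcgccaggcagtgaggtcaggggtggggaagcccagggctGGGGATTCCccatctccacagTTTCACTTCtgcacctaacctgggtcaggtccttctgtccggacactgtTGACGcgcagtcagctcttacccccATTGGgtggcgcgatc
H2-D1, chr17:35262844-35263093, plus strand: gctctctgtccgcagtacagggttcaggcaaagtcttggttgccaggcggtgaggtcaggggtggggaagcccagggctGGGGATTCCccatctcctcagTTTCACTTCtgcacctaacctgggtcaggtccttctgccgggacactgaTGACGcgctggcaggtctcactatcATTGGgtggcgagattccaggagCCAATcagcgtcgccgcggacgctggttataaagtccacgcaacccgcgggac
B2m, chr2:122147437-122147686, plus strand: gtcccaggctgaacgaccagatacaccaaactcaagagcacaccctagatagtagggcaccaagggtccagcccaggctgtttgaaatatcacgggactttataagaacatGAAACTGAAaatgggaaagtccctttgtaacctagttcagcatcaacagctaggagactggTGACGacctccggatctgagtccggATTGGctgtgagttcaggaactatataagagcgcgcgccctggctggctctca
Tap1, chr17:34187306-34187555, plus strand: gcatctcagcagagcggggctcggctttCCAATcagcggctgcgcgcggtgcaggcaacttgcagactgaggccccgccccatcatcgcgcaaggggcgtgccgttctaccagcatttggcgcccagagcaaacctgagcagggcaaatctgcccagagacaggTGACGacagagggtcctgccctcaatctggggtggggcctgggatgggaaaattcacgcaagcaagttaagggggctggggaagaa
From 5′ to 3′, H2-K1 and H2-D1 both carry GGGGATTCC, then TTTCACTTC, TGACG and ATTGG. In H2-D1 the block lies further from the annotated start, with the kappaB match beginning at -171, against -111 in H2-K1. Over windows that run 50 bases past the start, 211 of 239 aligned bases were identical (88.3%). B2m holds GAAACTGAA at -139, TGACG at -78 and ATTGG at -53, and Tap1 holds CCAAT at -222 and TGACG at -86. In windows of this longer kind, promoters of 8 of the 10 genes were found, all but Tap2 and Nlrc5, and H2-K1 has 2 starts of which the first listed was used. Of the 8, 2 held the kappaB motif, 1 GAAANNGAA, 2 GAANNGAAA, 1 TTCNNNGAA, 5 TGACG and 6 CCAAT. Of 32851 mouse promoters of the same length, 5.82%, 8.56%, 7.52%, 8.30%, 20.8% and 37.4% did. These promoters are not independent. The windows of Tap1 and Psmb9 overlap, and their TGACG and CCAAT matches are the same bases read on opposite strands. H2-K1 and H2-D1 are alike over most bases and share their matches. The counts among the 8 therefore hold some sites more than once, and no enrichment was tested. A match describes letters and not a bound site.

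B2m, the light chain shared by all class I molecules, fell at 3 weeks. B2m (ENSMUSG00000060802, protein-coding, chromosome 2, 122147686 to 122153083, plus strand) had 658 and 858 CPM in naive libraries, 645 and 697 at 1 week and 358 and 453 at 3 weeks. The three-week libraries were below all others, and the naive and one-week libraries overlapped. It was 1.87-fold lower than in naive mice (log2 fold change -0.90, SE 0.147, edgeR adjusted p = 0.000789) and 1.66-fold lower than in one-week LL2 mice (-0.73, SE 0.147, edgeR adjusted p = 0.00324). None of its transcript windows of 50 bases occurs in another gene, and both calls were kept in each of the 13 alternative settings.

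The transporter subunits Tap1 and Tap2, which work as a dimer, moved in opposite directions at 3 weeks. Tap1 (ENSMUSG00000037321, protein-coding, chromosome 17, 34187553 to 34197225, plus strand) had 41.1 and 56.9 CPM in naive libraries, 54.7 and 53.0 at 1 week and 31.6 and 37.1 at 3 weeks. The three-week libraries were below all others. Tap1 was lower at 3 weeks than in naive mice (log2 fold change -0.51, SE 0.158, edgeR adjusted p = 0.0346) and than in one-week LL2 mice (-0.65, SE 0.157, edgeR adjusted p = 0.00960). Without naive replicate 2 the log2 fold change against naive mice was -0.25 (edgeR adjusted p = 0.330), and without three-week replicate 1 the adjusted p was 0.204. The call against one-week LL2 mice was lost without three-week replicate 1 (edgeR adjusted p = 0.0840).

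Tap2 (ENSMUSG00000024339, protein-coding, chromosome 17, 34203527 to 34216321, plus strand) had 105 and 92.8 CPM in naive libraries, 88.6 and 72.4 at 1 week and 164 and 201 at 3 weeks. Both three-week libraries were above the other 4. Tap2 was 1.85-fold higher than in naive mice (log2 fold change 0.88, SE 0.140, edgeR adjusted p = 0.000626) and 2.26-fold higher than in one-week LL2 mice (1.18, SE 0.141, edgeR adjusted p = 7.40e-05), and both calls were kept in each of the 13 alternative settings. Within a library there were 2.55 and 1.63 Tap2 counts per Tap1 count in naive mice, 1.62 and 1.37 at 1 week and 5.19 and 5.41 at 3 weeks. The 2 genes share 0.442% and 0.655% of their windows of 50 bases, with each other. The opposite-strand genes Gm20496 and Gm15821, which share 165 and 533 exon bases with Tap2, were listed at 0 or 1 count in each library, and the strand setting of the counting is not given in the sources used here.

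Tapbp, which encodes the tapasin that bridges the transporter and the heavy chain, did not pass the test in any comparison with TMM scaling. It (ENSMUSG00000024308, protein-coding, chromosome 17, 33915899 to 33929292, plus strand) had 95.2 and 110.4 CPM in naive libraries, 89.4 and 92.5 at 1 week and 81.5 and 85.7 at 3 weeks. The groups did not overlap, but the log2 fold change at 3 weeks was -0.30 (SE 0.120, edgeR adjusted p = 0.0968), and with library totals in place of TMM it passed at 3 weeks (edgeR adjusted p = 0.0184). Tapbp shares 149 exon bases with Zbtb22 on the same strand, which had between 507 and 623 counts. It also shares 904 exon bases with Gm19412 on the opposite strand, which was not among the genes counted. Without the strand setting, reads of Gm19412 cannot be told apart from those of Tapbp there.

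Tap1, Tap2, Psmb8 and Psmb9 lie side by side in the class II region of the MHC. Within 100 kb of the Tap1 start 11 genes were tested, and at 3 weeks 2 of them were higher than in naive mice and 5 lower. Brd2, a bromodomain protein at -64.9 kb, was the other higher gene (log2 fold change 0.50, edgeR adjusted p = 0.0376). The lower genes beside Tap1 were the class II genes H2-DMb2 (-1.34), H2-DMb1 (-0.95), H2-Ob (-2.80) and H2-Ab1 (-1.77). Tap2, whose start is 16.0 kb from that of Tap1, was higher with lower genes on both sides of it.

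**Figure D3:**
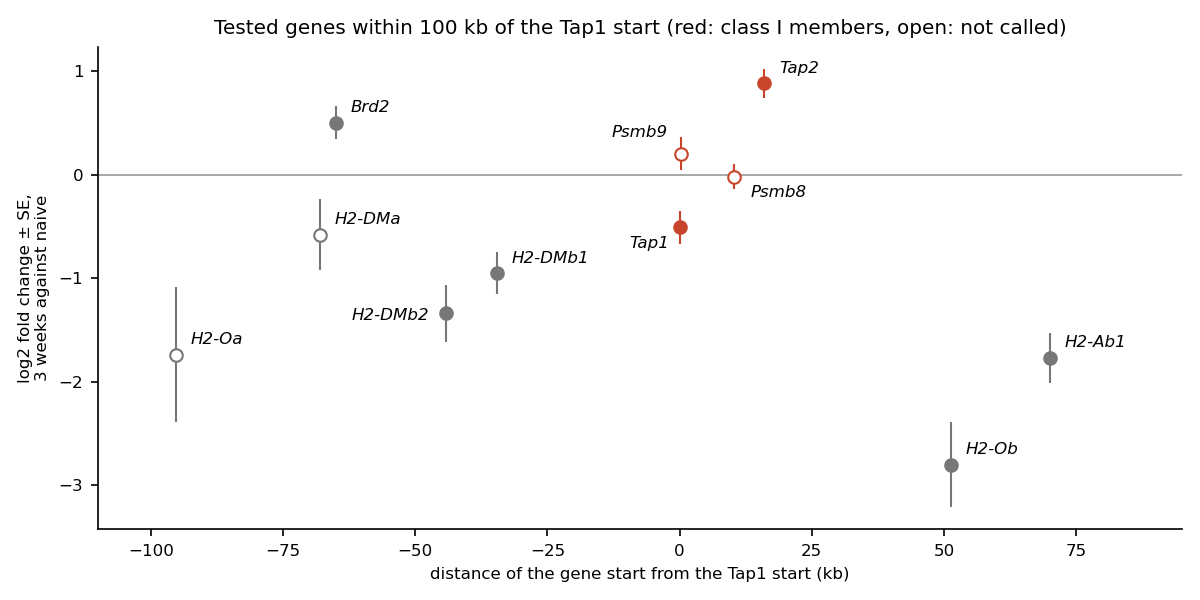
Log2 fold change with its standard error, three-week LL2 against naive mice, of the 11 tested genes within 100 kb of the Tap1 start, by the distance of the gene start in kb. Red points are class I genes, filled points passed an adjusted p of 0.05, and Tap2 at 0.88 stands above Tap1 at -0.51.

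The 3 immunoproteasome subunits each took another course. Psmb8 (ENSMUSG00000024338, protein-coding, chromosome 17, 34197721 to 34201454, plus strand), which replaces Psmb5, had 66.1 and 73.8 CPM in naive libraries, 101 and 94.3 at 1 week and 68.2 and 70.1 at 3 weeks. Both one-week libraries were above the other 4. It was 1.39-fold higher at 1 week than in naive mice (log2 fold change 0.48, SE 0.118, edgeR adjusted p = 0.0262) and lower at 3 weeks than at 1 week (-0.50, SE 0.118, edgeR adjusted p = 0.00883), and at 3 weeks the difference from naive mice was -0.02 (SE 0.119, edgeR adjusted p = 0.945). The first call was lost without naive replicate 1 (edgeR adjusted p = 0.193), one-week replicate 1 (0.175) or one-week replicate 2 (0.101), and the second without one-week replicate 1 (0.0608) or three-week replicate 1 (0.0649).

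Psmb9 (ENSMUSG00000096727, protein-coding, chromosome 17, 34181987 to 34187764, minus strand), which replaces Psmb6, had 104 and 134 CPM in naive libraries, 127 and 113 at 1 week and 116 and 156 at 3 weeks. The groups overlapped, and the log2 fold changes were 0.01, 0.20 and 0.18 (edgeR adjusted p = 0.973, 0.422 and 0.445). Psmb9 and Tap1 start from 1 region in opposite directions, and their promoter windows overlap by 275 bases. They share 212 exon bases, whose reads cannot be told apart without strand. Psmb9 counts per Tap1 count were 2.52 and 2.35 in naive libraries, 2.31 and 2.14 at 1 week and 3.67 and 4.21 at 3 weeks.

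Psmb10 (ENSMUSG00000031897, protein-coding, chromosome 8, 105935735 to 105938444, minus strand), which replaces Psmb7, had 11 and 15.1 CPM in naive libraries, 17.0 and 14.8 at 1 week and 8.69 and 7.92 at 3 weeks. Both three-week libraries were below the other 4. It was 1.57-fold lower at 3 weeks than in naive mice (log2 fold change -0.65, SE 0.198, edgeR adjusted p = 0.0325) and 1.92-fold lower than at 1 week (-0.94, SE 0.195, edgeR adjusted p = 0.00380). The first call was lost with DESeq2 (adjusted p = 0.0572), without naive replicate 2 (log2 fold change -0.40, edgeR adjusted p = 0.254) and without three-week replicate 1 (0.0716) or 2 (0.136), and the second was kept in each of the 13 alternative settings.

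Of the constitutive partners, Psmb7 was higher at 3 weeks than in naive mice (log2 fold change 0.47, SE 0.116, edgeR adjusted p = 0.0113), with 51.0 and 50.8 CPM in naive libraries and 71.7 and 69.4 at 3 weeks. That call was lost without naive replicate 1 (edgeR adjusted p = 0.0735) or three-week replicate 1 (0.0577) and with library totals (0.0769). Psmb5 had a difference of 0.46 (edgeR adjusted p = 0.0514) and Psmb6 of 0.32 (edgeR adjusted p = 0.0837), neither past the test. Psmb5 passed with no filter on low counts (edgeR adjusted p = 0.0161), without naive replicate 2 (0.0268) and without three-week replicate 2 (0.0167), with values between 0.25 and 0.68 over all alternatives. Of its windows, 54.1% occur in other genes, its pseudogene among them. Psmb10 counts per Psmb7 count were 0.216 and 0.298 in naive libraries, 0.256 and 0.222 at 1 week and 0.121 and 0.114 at 3 weeks. Over all 6 catalytic subunits, with counts divided by gene length, the immunoproteasome held 33.5% ± 0.217 (SD, n = 2) of the counts in naive mice, 31.5% ± 2.15 (SD, n = 2) at 1 week and 28.0% ± 5.09 (SD, n = 2) at 3 weeks. The three-week libraries stood at 24.4% and 31.6%. This spread was wider than the difference of their mean from that of the naive or of the one-week libraries. The proteasome activator subunits Psme1 and Psme2 had log2 fold changes of -0.10 and -0.05 at 3 weeks and passed no test with TMM scaling, while with library totals both were lower at 3 weeks than at 1 week (edgeR adjusted p = 0.0170 and 0.0162).

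**Figure D4:**
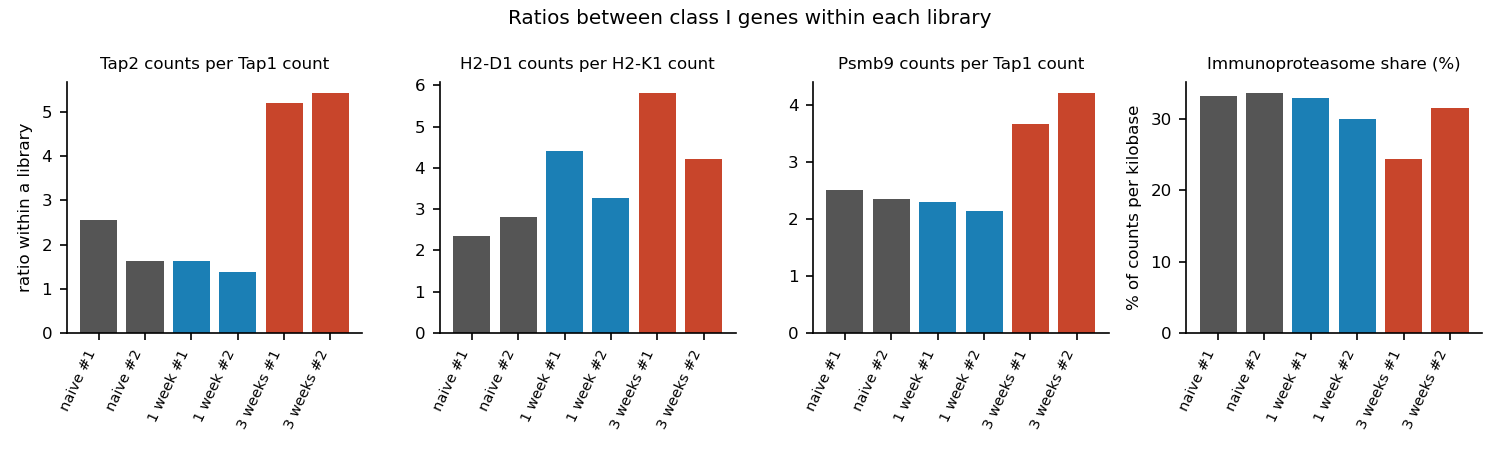
Ratios within each library (bars from 0, 2 libraries per group): Tap2 counts per Tap1 count, H2-D1 counts per H2-K1 count, Psmb9 counts per Tap1 count, and the percentage of catalytic subunit counts per kilobase in Psmb8, Psmb9 and Psmb10. Tap2 counts per Tap1 count are above 5 in both three-week libraries and at most 2.55 in the others.

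Nlrc5, the class I transactivator, had the largest fold change among the 10 genes at 3 weeks and the lowest counts. It (ENSMUSG00000074151, protein-coding, chromosome 8, 94434356 to 94527272, plus strand) had 28 and 34 counts in naive libraries, 40 and 56 at 1 week and 12 and 11 at 3 weeks, or 2.22 and 2.78, 2.67 and 4.18, and 0.931 and 0.846 CPM. The three-week libraries were below the other 4. Nlrc5 was 2.79-fold lower at 3 weeks than in naive mice (log2 fold change -1.48, SE 0.435, edgeR adjusted p = 0.0277) and 3.81-fold lower than at 1 week (-1.93, SE 0.422, edgeR adjusted p = 0.00535). The first call was lost with DESeq2 (adjusted p = 0.0533) and when any of the 4 libraries compared was left out (edgeR adjusted p between 0.0604 and 0.125), the second without one-week replicate 2 (edgeR adjusted p = 0.0617). The lincRNA 9330175E14Rik on the opposite strand, which shares 78 exon bases with Nlrc5, had 42 and 66 counts in naive libraries, 38 and 16 at 1 week and 15 and 12 at 3 weeks.

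Among 16 transcription factors of class I genes, 1 was higher and 3 lower at 3 weeks than in naive mice. Over all tested genes 12.0% were higher and 9.42% lower. Irf9, a factor of the interferon response, fell by 0.75 on the log2 scale (edgeR adjusted p = 0.000937), and Irf8 was lower too. Atf1, of the family that binds the X2 box, was higher (0.59, edgeR adjusted p = 0.00348). Irf1 had 234 and 317 CPM in naive libraries and 230.0 and 235 at 3 weeks, and did not pass (-0.24, SE 0.137, edgeR adjusted p = 0.236). Without naive replicate 1 it was at -0.48 and passed (edgeR adjusted p = 0.0334), as it did with library totals (0.0473). At 1 week Irf2 was lower (-0.68, edgeR adjusted p = 0.00423), and Irf8 was the other of 2 lower factors, with none higher. Between the LL2 groups 2 factors were higher at 3 weeks, among them Atf1 (0.76, edgeR adjusted p = 0.000588), and 3 were lower.

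Divided by gene length, class I genes spanned a wide range in naive mice. B2m was highest, with 765 and 998 CPM per kilobase, followed by H2-D1 with 533 and 659.7 and H2-K1 with 199.7 and 207. Psmb9, Tapbp, Tap2 and Psmb8 lay between 19.5 and 36.6 CPM per kilobase, Tap1 and Psmb10 between 6.45 and 10.4, and Nlrc5 at 0.261 and 0.328. Psmb9 overlapped with Tapbp, Tapbp with Tap2, and Tap1 with Psmb10, while the other neighbours in this order did not overlap. At 3 weeks H2-D1 stood first with 589.5 and 584 CPM per kilobase, above B2m with 416 and 527, and Tap2 stood above Psmb9, with 43.3 and 53.0 against 31.7 and 42.6. At 1 week B2m had 750.5 and 811 CPM per kilobase and H2-D1 613 and 524, in the order of naive mice.

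Other heavy chains fell or did not pass. Of the 24 other class I and class I-like heavy chains, 13 were tested. At 3 weeks 4 of these were lower than in naive mice and none higher, where 9.42% and 12.0% of all tested genes were. At 1 week none passed, with 2 higher and 1 lower at an unadjusted p under 0.05. At that threshold 1501 of all 12259 tested genes were higher and 1348 lower. H2-Q7, a non-classical heavy chain, had 43.0 and 74.1 CPM in naive libraries, 22.6 and 45.0 at 1 week and 7.91 and 9.07 at 3 weeks (log2 fold change -2.78 at 3 weeks, SE 0.311, edgeR adjusted p = 4.80e-05). H2-Q6 (-1.96, edgeR adjusted p = 0.00142), H2-Q10 (-0.78, edgeR adjusted p = 0.00268) and H2-T24 (-1.02, edgeR adjusted p = 0.00928) were also lower. H2-Q6 was at -1.19 without naive replicate 2, and H2-T24 lost its call without naive replicate 2 (edgeR adjusted p = 0.0744) or three-week replicate 1 (0.0829). Reads of H2-Q6, H2-Q7 and H2-Q10 are uncertain, since 32%, 26.4% and 19% of their windows occur in other genes. H2-T23, which encodes Qa-1, had between 58.7 and 80.5 CPM and passed no test.

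Pdia3 and Lnpep, of the loading and trimming genes, were lower at 1 week. Of 9 loading and trimming genes, 2 were lower at 1 week than in naive mice and none passed at 3 weeks (none also at an unadjusted p under 0.05). Between the LL2 groups 3 were higher at 3 weeks. Over all tested genes 3.76% were lower at 1 week, and 12.9% were higher between the LL2 groups. Pdia3, the disulfide isomerase of the loading complex, had 75.1 and 66.6 CPM in naive libraries, 36.3 and 37.8 at 1 week and 81.3 and 59.4 at 3 weeks, and it was lower at 1 week (log2 fold change -0.94, SE 0.152, edgeR adjusted p = 0.00336) though not without naive replicate 1 (0.0632). Lnpep, an aminopeptidase of cross-presentation, was lower at 1 week (-0.92, edgeR adjusted p = 0.0289) and lost that call without naive replicate 1 (0.207) or without either one-week replicate (0.0593 and 0.186). Calreticulin (Calr) was higher at 3 weeks than at 1 week (0.60, edgeR adjusted p = 0.0111), a call lost without three-week replicate 1 (0.37, adjusted p = 0.131), one-week replicate 1 (0.0590) or one-week replicate 2 (0.105) and with library totals (0.0809).

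Of 10 genes of proteasome activation, assembly and constitutive catalysis, none passed at 1 week, with 2 higher and 2 lower at an unadjusted p under 0.05. At 3 weeks 2 were higher and 1 lower than in naive mice, where 12.0% and 9.42% of all tested genes were. Beside Psmb7, the maturation factor Pomp was higher (0.35, edgeR adjusted p = 0.0490) and the assembly chaperone Psmg2 lower (-0.71, edgeR adjusted p = 0.0318). The Pomp call was lost when any of the 6 libraries was left out, and that of Psmg2 when any of the 4 libraries compared was. In all, Pomp lost its call in 12 of the 13 alternative settings, DESeq2 (adjusted p = 0.0609) and library totals (edgeR adjusted p = 0.284) among them. Psmg2 lost its call with DESeq2 too (adjusted p = 0.0670). The activator Psme4 was higher at 3 weeks than at 1 week (0.72, edgeR adjusted p = 0.00175). Of 5 tested cytosolic peptidases, Tpp2, which trims long peptides, was higher at 3 weeks, with 18.6 and 15.8 CPM against 9.81 and 6.88 in naive libraries (1.04, SE 0.202, edgeR adjusted p = 0.00257).

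Of 9 interferon receptor and signalling genes, 2 were higher and 1 lower at 3 weeks than in naive mice, and none passed at 1 week (2 lower at an unadjusted p under 0.05). Over all tested genes 12.0% were higher and 9.42% lower at 3 weeks than in naive mice. Ifngr1, the ligand-binding chain of the interferon gamma receptor, had 87.0 and 81.9 CPM in naive libraries, 56.7 and 68.6 at 1 week and 227 and 227 at 3 weeks (log2 fold change 1.43 at 3 weeks, SE 0.123, edgeR adjusted p = 5.56e-06). Ifnar2 was higher too (0.38, edgeR adjusted p = 0.0349), a call lost without naive replicate 1 (0.151), naive replicate 2 (0.102), either one-week replicate (0.0743 and 0.0776) or three-week replicate 2 (0.203). Ifngr2 was higher at 3 weeks than at 1 week (0.40, edgeR adjusted p = 0.0358), a call lost when naive replicate 1 or any of the 4 libraries compared was left out. Ifnar2 also lost its call with edgeR on the groups compared (adjusted p = 0.0692), library totals (0.205) and no filter on low counts (0.0652). Ifngr2 also lost its call with DESeq2 (adjusted p = 0.0684), and in edgeR with library totals (0.288) and no filter (0.0797). Socs1, an inhibitor of interferon signalling, was lower at 3 weeks than in naive mice (-1.13, SE 0.182, edgeR adjusted p = 0.000722). Of 37 tested interferon-stimulated genes, 16 were lower and 1 higher at 3 weeks than in naive mice, with a median log2 fold change of -0.60, and at 1 week none passed (3 lower at an unadjusted p under 0.05). Among them Usp18, which removes ISG15 from proteins, fell by 1.64 on the log2 scale (edgeR adjusted p = 0.000554) and Irf7 fell by 0.99 (edgeR adjusted p = 0.000568), Rsad2 had 238 and 243 CPM in naive and 39.6 and 67.4 in three-week libraries, and Trim30a was the higher one (0.71, edgeR adjusted p = 0.00142).

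MHC class II genes, which present extracellular antigen to CD4+ T cells, were low and fell at 3 weeks. Of 9 tested, 7 were lower at 3 weeks than in naive mice, with a median log2 fold change of -1.74, and at 1 week none passed (1 lower at an unadjusted p under 0.05). H2-Eb1 had 25.1 and 33.1 CPM in naive libraries, 23.6 and 24.4 at 1 week and 7.37 and 6.0 at 3 weeks (-2.12, SE 0.185, edgeR adjusted p = 5.72e-06), and H2-Aa was at -1.83 (edgeR adjusted p = 7.89e-05). B cells and dendritic cells hold much class II. The B-lineage markers named above were lower at 3 weeks too, as were 2 of 7 dendritic cell markers, Bst2 and Itgax, while 5 did not pass. Bst2, with 5 and 7 counts in the three-week libraries, is also among the 16 lower interferon-stimulated genes. The part of these cells in the class II results was not tested. In bulk RNA fewer cells and less RNA per cell cannot be told apart. Over all 104 tested genes of the pathway lists beside the 10 class I genes, 7 were higher and 30 lower at 3 weeks than in naive mice. Among all tested genes 12.0% were higher and 9.42% lower. The 30 included 16 interferon-stimulated and 7 class II genes. Against one-week LL2 mice 12 were higher and 29 lower, where 12.9% and 9.57% of all tested genes were. At 1 week against naive mice, where 4.23% of all tested genes were higher and 3.76% lower, none was higher and 4 were lower. The last count was 1 without naive replicate 1 and 2 without one-week replicate 1, and that between the LL2 groups was 26 in all without three-week replicate 1.

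**Figure D5:**
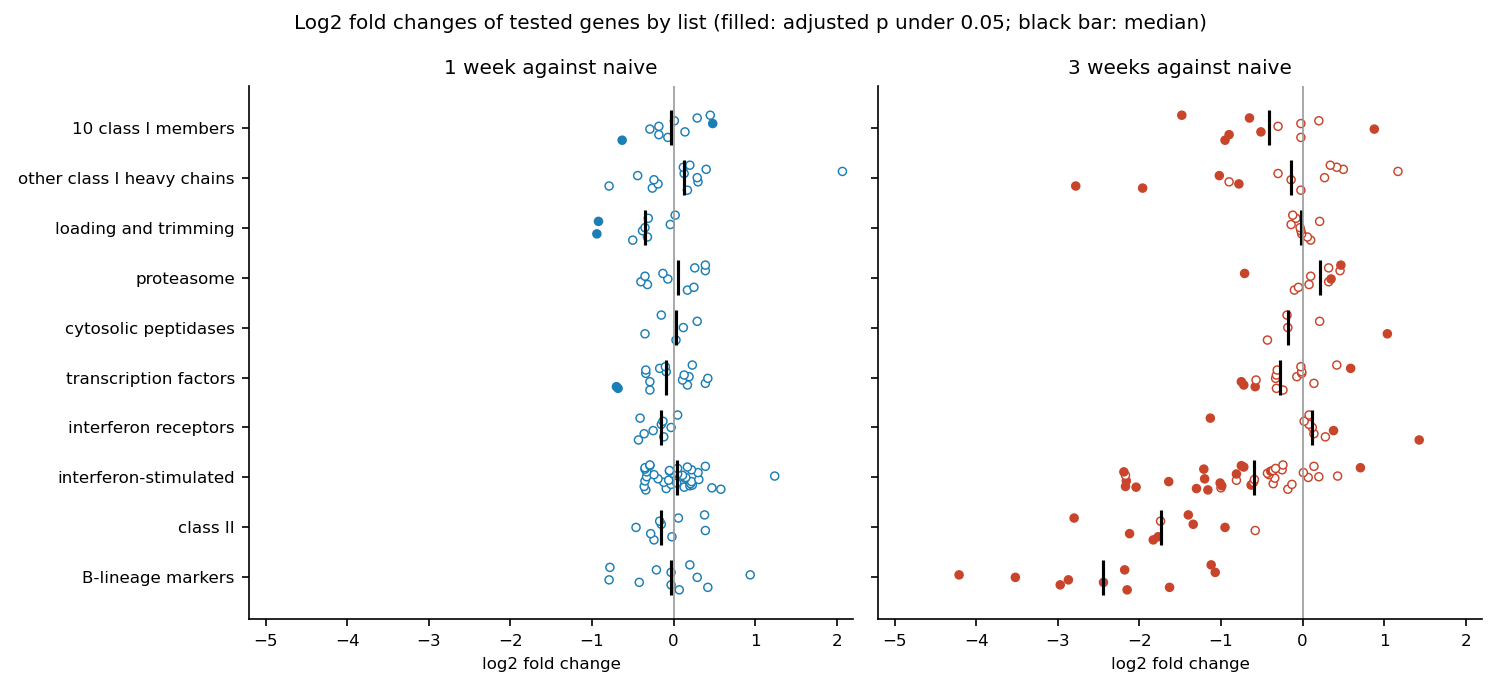
Log2 fold change of each tested gene by list at 1 week and at 3 weeks against naive mice (horizontal axes). Points are genes, filled where the adjusted p was under 0.05, and black bars are list medians, which at 3 weeks stood at -0.41 for the 10 class I genes, -0.60 for interferon-stimulated genes, -1.74 for class II genes and -2.44 for B-lineage markers.

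Markers of other cells moved in some lists. Monocyte and macrophage markers summed to between 1382 and 1779 CPM over the 6 libraries, with 1 of 9 higher and 1 lower at 3 weeks than in naive mice. Dendritic cell markers summed to between 83.8 and 114 CPM, with 2 of 7 lower. Over all tested genes 12.0% were higher and 9.42% lower in that comparison, and the monocyte and macrophage counts were near these shares. T and NK cell markers summed to between 8.61 and 25.1 CPM, and of 3 tested Cd3d was lower and Nkg7 higher at 3 weeks than in naive mice. Erythroid markers summed to between 1177 and 1487 CPM but to 562 CPM in three-week replicate 2, and basophil, eosinophil and mast cell markers to 46.1 and 48.5 CPM at 1 week against between 16.4 and 25.2 CPM in the other libraries. Of the 4 tested of that last list, Prg2, Mcpt8 and Cpa3 were higher at 1 week than in naive mice, and all 4 were lower at 3 weeks than at 1 week. Over all tested genes 4.23% were higher in the first of these comparisons and 9.57% lower in the second. None of the markers was at 0 in all 6 libraries. Their part in the class I results was not tested.

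The level of the 10 genes, each standardised over the 6 libraries and averaged, was -0.20 and 0.76 in naive libraries, 0.36 and 0.14 at 1 week and -0.78 and -0.27 at 3 weeks, so that naive replicate 1 and three-week replicate 2 lay close to each other. The genes whose log2 CPM followed this mean most closely over the 6 libraries were Gm13822 (Pearson's r = 0.990), Lzts1 (0.988), Gpr18 (0.988), Gm12107 (0.978) and Haspin (0.976). These were picked out of all tested genes over 6 libraries that share their depth and groups, and the coefficients are a description. Gm13822 had 13.2 and 23.3 CPM in naive libraries, 18.8 and 16.6 at 1 week and 9.46 and 14.3 at 3 weeks.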

How the data were processed

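RNA of Ly6G+ BM cells was measured in 6 libraries, 2 for each of 3 groups. The study describes 3 samples per group, and 2 per group were analysed here. The authors deposited expected counts per gene, written as whole numbers and not scaled between libraries, from RSEM (version 1.2.31 in the submitters' processing notes) with Bowtie2 against mm10. The labels give 75 bp single-end reads on total RNA libraries, and the methods of the study name shorter reads and another RSEM version. Counts carry the splits that RSEM makes between near-identical genes. Of 38887 gene identifiers 37570 matched GENCODE (GRCm38). Genes were filtered with filterByExpr, which left 12259, and scaled by TMM. A fit of edgeR 4.0.16 (quasi-likelihood, R 4.3.3) covered the 6 libraries, with no factor but the group. P-values were adjusted by the Benjamini-Hochberg method over all tested genes, and a gene was called at an adjusted p under 0.05. The SE of a log2 fold change was derived from the test, as its absolute value over the square root of the F statistic. CPM used library totals times TMM factors. Lengths were those of merged exons. The fit was tested on simulated counts for three-week LL2 against naive mice with 200 genes changed. It recovered 59.5% of genes changed 2-fold and 86.5% of those changed 4-fold. Of its 126 and 179 calls, 7 and 6 were genes not changed. Changes under 2-fold were not simulated, and a gene that did not pass may still differ.

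The members and lists were chosen with earlier results of these data known. The genes named were all 10 class I genes, up to 4 called genes of each other list by smallest adjusted p, fixed partners (Psmb5, Psmb6, Psmb7, Psme1, Psme2 and Irf1, and another that is not reported here), the marker lists by summed level, and the 5 genes of most similar pattern. Irf8, H2-Q4, H2-T23, Brd2, H2-DMb1 and H2-DMb2 were named after their values were seen. Alternatives were DESeq2 1.42.0, edgeR on the groups compared, other scalings, other filters, a replicate block, summed heavy chain counts and each library left out in turn. Same-numbered libraries did not deviate together (correlations between 0.02 and 0.03), so no pairing was used. Replicate counts differed by more than sampling noise (chi-square per degree of freedom between 9.06 and 12.6). Promoters came from RefSeq (GRCm38.p6), aligned with Biopython 1.88.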

Additional observations from a re-analysis of the deposited data

Results flagged for a closer look

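For 6 of the 10 class I genes, the LL2 groups differed in their change from the shared naive mice, as tested by the direct comparison of the LL2 groups with edgeR in 2 libraries each. The log2 difference, three-week against one-week, was -0.73 for B2m, -0.65 for Tap1, 1.18 for Tap2, -0.50 for Psmb8, -0.94 for Psmb10 and -1.93 for Nlrc5. In this comparison 22.5% of all tested genes changed. Libraries of the LL2 groups did not overlap for the 6 genes, nor for H2-K1 and Tapbp, which were not called. The share of all tested genes without overlap was not counted, so the lack of overlap only describes these libraries. For H2-K1 the nearest libraries of the LL2 groups stood at 357 CPM at 3 weeks and 359 CPM at 1 week. Markers of other cells also differed between these groups: 11 of 11 B-lineage markers, 6 of 9 class II genes and 4 of 4 basophil, eosinophil and mast cell markers tested were lower at 3 weeks, as were Cd3d and 18 of 37 interferon-stimulated genes, and 6 of 7 early granulocyte markers were higher. Their part was not tested.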

How the results depend on the processing

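Of 14 calls among the 10 class I genes, 6 were kept in all 13 alternative settings. These 13 leave out the summed heavy chain counts, and the three-week call of H2-K1 is among the 6. The sum that stands for H2-K1 there did not pass at 1 week or at 3 weeks against naive mice (edgeR adjusted p = 0.607 and 0.209). The number of class I genes changed at 1 week ran from 0 to 2 and at 3 weeks from 3 to 6 when each library was left out in turn. The number of genes changed in the other lists then ran from 1 to 6 at 1 week and from 26 to 40 between the LL2 groups, and with no filter on low counts it was 9 at 1 week, against 4. With library totals in place of TMM, the median of all tested genes moved to -0.11 at 3 weeks and -0.22 between the LL2 groups, and the medians of the class I genes to -0.55 and -0.61. The summed heavy chains then passed the test at -0.36 at 3 weeks and -0.30 between the LL2 groups. Differences between the LL2 groups that changed sign with library totals, none of them called, were H2-D1 (-0.16), Psmb9 (-0.02), Psmb5 (-0.13), Psmb6 (-0.14), Psmb7 (-0.12) and Irf1 (-0.15), and with heavy chain counts summed H2-D1 stood at -0.10. Psmb9 at 1 week was -0.01 with DESeq2 and with its size factors. With libraries left out, the values that changed sign, none called with all libraries, ran at 1 week from -0.08 to 0.39 for Tap1, -0.16 to 0.21 for Psmb9, -0.22 to 0.09 for H2-D1 and -0.36 to 0.03 for B2m. At 3 weeks they ran from -0.03 to 0.40 for Psmb9, -0.20 to 0.15 for H2-D1, -0.13 to 0.07 for Psmb8, -0.26 to 0.15 for Psme2 and -0.48 (called, without naive replicate 1) to 0.00 for Irf1. Between the LL2 groups they ran from -0.02 to 0.10 for Psmb6, -0.01 to 0.08 for Irf1, -0.09 to 0.14 for H2-D1, -0.12 to 0.26 for Psmb5 and -0.04 to 0.39 for Psmb9. Without division by length the immunoproteasome share was 53.1%, 50.8% and 47.3% in naive, one-week and three-week LL2 mice. With the replicate block, 2, 6 and 6 class I genes changed in the 3 comparisons, as without it, and of the other named genes Pomp at 3 weeks and Irf2 between the LL2 groups lost their calls. The cause of these changes was not tested. With 2 libraries per group, 8 of the 14 class I calls were lost in at least 1 of the 13 alternative settings, summed heavy chain counts not included.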
